A study of Mus musculus with 6 samples.

Results

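Genes for the uptake, synthesis and tRNA charging of amino acids were examined in lacrimal glands (LGs), which secrete the watery part of tears, of T2DM and vehicle mice. Members were taken by name: aminoacyl-tRNA synthetase genes with a one-letter amino acid prefix, genes of the solute carrier families SLC1, SLC3, SLC6, SLC7, SLC36, SLC38 and SLC43, 7 enzymes of serine, asparagine and proline synthesis and mitochondrial folate metabolism, and 5 regulators of the stress response to amino acid lack. Of 12491 protein-coding genes in the table, 78 matched, namely 17 cytosolic and 17 mitochondrial tRNA synthetases, 32 transporter names, and these 7 enzymes and 5 regulators. One matched name, Slc7a6os, belongs to a neighbor of Slc7a6 that is no transporter.

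Poly(A) RNA was sequenced from 3 vehicle and 3 T2DM LG samples of C57BL/6 mice labelled with an age of 24 weeks. T2DM mice, which were male like the controls, ate a high-fat diet and received streptozotocin (STZ), a toxin of insulin-producing cells, and their samples are labelled as taken 24 weeks after treatment. By the study's methods their diet began in young mice some weeks before STZ, so the age label cannot be their age at collection. They stayed on that diet, whereas the vehicle mice were given normal chow and citrate buffer, so diet and STZ cannot be told apart. The number of mice behind a library is not stated, so p-values here cover only how much these 6 libraries vary.

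Secretory cells use amino acids at a high rate. Transporters of the plasma membrane import them, some as a light chain that needs a heavy chain for its place in the membrane. The tRNA synthetases join each amino acid to its tRNA, in the cytosol or, mostly from a second set of nuclear genes, in mitochondria. Gars and Kars, counted here as cytosolic, serve both. When uncharged tRNA accumulates or proteins misfold in the endoplasmic reticulum, phosphorylation of eIF2 alpha raises translation of the transcription factor ATF4, and ATF4 induces asparagine synthetase, serine and proline enzymes, several amino acid transporters and many cytosolic synthetases.

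Values are FPKM, the fragments of a gene per kilobase of its exons scaled to the mapped fragments of the library. A member was tested when its mean reached 0.5 FPKM in one group, which 77 of 78 did. The limma test ran over 12135 genes on log2(FPKM + 1), with SE the standard error, and log2 fold changes are differences of group means on that scale, which understates the change of genes with low FPKM. On this scale all tested genes together had a median of 0.16. Secretoglobins, very abundant secreted proteins of the gland, held 44.9% to 51.8% of the summed FPKM in vehicle and 37.3% to 41.5% in T2DM libraries, and their part in this shift was not tested. A second fit scaled each library by the median of ratios over genes at 1 FPKM or more in all libraries, which left a median log2 fold change of 0.02. Both are given, as deposited and scaled values.

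In T2DM LGs 6 transporter genes rose, and the transporter gene Slc7a5, the synthesis gene Asns and the synthetase gene Rars fell. These 9 of 77 tested members passed limma's adjusted p (Benjamini-Hochberg over all genes, under 0.05). The 6 higher members, all transporters (7.79%), stood against 10.5% of all tested genes, and the 3 lower members (3.90%) against 1.70%. When libraries were scaled, 3 members were higher (4.10% of all genes) and 11 were lower (14.3%, against 3.55% of all genes). Of the 9, 6 passed in both fits, 3 of the rises were lost and 8 further members passed when scaled, all lower. At an unadjusted p under 0.05, 11 members were higher (28.5% of all genes) and 12 lower (4.57%), and scaled 7 were higher (15.0%) and 26 lower (11.9%). The median log2 fold change of the 77 members was 0.01 as deposited and -0.15 scaled.

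**Figure D1:**
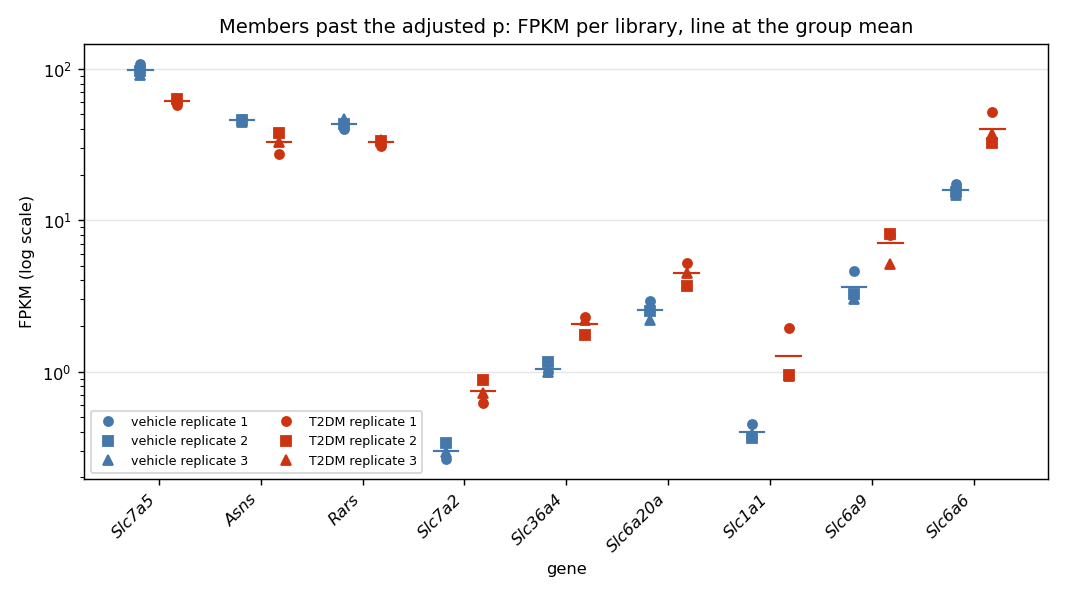
FPKM (log scale) of the 9 members past limma's adjusted p in each of the 3 vehicle and 3 T2DM libraries, with a line at each group mean. Slc7a5, Asns and Rars lie lower in all 3 T2DM libraries than in any vehicle library, and the other 6 genes, carriers of taurine, glycine, proline and other amino acids, lie higher.

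Slc7a5 encodes the light chain of LAT1, the exchanger that imports leucine, tryptophan and other large neutral amino acids, and lies on chromosome 8, from 121881150 to 121907694 on GRCm38. It was at 108, 97.4 and 91.3 FPKM in the vehicle libraries and at 57.6, 63.2 and 62.8 FPKM in the T2DM libraries. All T2DM values were under all vehicle values. Slc7a5 fell from 98.9 ± 8.57 to 61.2 ± 3.15 FPKM (SD, n = 3 each), by a log2 fold change of -0.68 (SE 0.09, adjusted p = 0.0140 from limma) as deposited and of -0.86 scaled (adjusted p = 0.00847 from limma). It was the most abundant of the 32 transporter members in the vehicle group. Its heavy chain Slc3a2 was at 62.4, 60.0 and 54.4 FPKM in the vehicle and at 52.2, 41.9 and 52.6 FPKM in the T2DM libraries. Slc3a2 did not pass as deposited (log2 fold change -0.27, adjusted p = 0.139 from limma) and fell when scaled (-0.45, adjusted p = 0.0380), and its groups did not overlap.

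Slc6a6, the carrier of taurine, an amino sulfonic acid that cells accumulate as an osmolyte, had the largest log2 fold change of log2(FPKM + 1) among tested members, as deposited and scaled, while the scarcer Slc43a2 and Slc1a1 had larger ratios of mean FPKM (4.18 and 3.18). It lies on chromosome 6 from 91684053 to 91759066 and was at 17.2, 15.3 and 14.7 FPKM in the vehicle and at 52.0, 32.2 and 36.9 FPKM in the T2DM libraries. The lowest T2DM value lay above the highest vehicle value, and T2DM replicate 1 was highest. The mean rose 2.57-fold, with a log2 fold change of 1.28 (SE 0.17, adjusted p = 0.0130 from limma) as deposited and 1.11 scaled (adjusted p = 0.0137). Of the 9 called members, Slc6a6 and Slc7a5 kept their call when any library other than vehicle replicate 3 was left out. Without vehicle replicate 3 none of the 9 passed, with adjusted p = 0.0957 for Slc6a6 and 0.0895 for Slc7a5 by limma, and at that setting 25 genes of the whole table were called higher and 16 lower.

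A further 2 carriers rose on both scales. Slc36a4, a member of the proton-assisted amino acid transporter family (chromosome 9, 15709738 to 15743361), was at 0.996, 1.16 and 0.991 FPKM in the vehicle and at 2.28, 1.75 and 2.18 FPKM in the T2DM libraries. Slc6a20a, a sodium-coupled carrier of proline and other imino acids (chromosome 9, 123634770 to 123678885), was at 2.91, 2.50 and 2.20 FPKM and at 5.20, 3.69 and 4.47 FPKM. Neither gene overlapped between groups. Their log2 fold changes were 0.58 (SE 0.11, adjusted p = 0.0243 from limma) and 0.62 (SE 0.13, adjusted p = 0.0313), and 0.47 and 0.48 scaled. Reads of Slc6a20a may be shared with its close paralog Slc6a20b.

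The other 3 rises were called as deposited and not when scaled. The glycine carrier Slc6a9 (chromosome 4, 117834506 to 117875198) was at 4.6, 3.28 and 3.0 FPKM in the vehicle and at 7.94, 8.12 and 5.14 FPKM in the T2DM libraries, with a log2 fold change of 0.80 (SE 0.19, adjusted p = 0.0386 from limma, 0.0677 scaled). Slc1a1, a carrier of glutamate, aspartate and cystine (chromosome 19, 28835049 to 28913960), was at 0.449, 0.364 and 0.389 FPKM and at 1.93, 0.956 and 0.935 FPKM, a 3.18-fold ratio of means. T2DM replicate 1 held about as much Slc1a1 as the other T2DM libraries together. Slc7a2, a carrier of arginine and lysine (chromosome 8, 40862396 to 40922308), was at 0.264, 0.337 and 0.295 FPKM and at 0.621, 0.878 and 0.722 FPKM. Slc1a1 and Slc7a2 had adjusted p = 0.0444 and 0.0429 by limma as deposited, and 0.0604 and 0.0793 scaled. Their vehicle means were 0.401 and 0.299 FPKM, under the filter of 0.5 FPKM. Both were thus tested only through the T2DM group, where they were high. Without T2DM replicate 1, no member other than Slc6a6 was called higher, and the same held without vehicle replicate 1 or vehicle replicate 2.

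Slc38a2, a sodium-coupled carrier of alanine and glutamine that amino acid starvation induces, was at 29.2 ± 2.87 FPKM in vehicle and 33.5 ± 2.87 FPKM in T2DM LGs (SD, n = 3 each, log2 fold change 0.19, adjusted p = 0.238 from limma, 0.02 scaled). The glutamine carrier Slc1a5 was at 19.0 ± 3.97 and 19.5 ± 0.542 FPKM, and the arginine carrier Slc7a1 at 9.56 ± 0.624 and 8.85 ± 0.672 FPKM. Slc7a11, the cystine light chain and a known target of ATF4, was low, at 0.640 ± 0.0693 and 0.438 ± 0.0541 FPKM, with groups that did not overlap (adjusted p = 0.225 from limma). Its T2DM mean lay under the filter of 0.5 FPKM. It was thus tested only through the vehicle group, where it was higher. Slc38a10, a broadly expressed member of the SLC38 family, did not pass as deposited and fell when scaled (27.3 ± 1.61 to 22.0 ± 2.06 FPKM, scaled log2 fold change -0.48, adjusted p = 0.0338). Slc1a5, Slc7a1, Slc7a11 and Slc38a10 were named after their values were seen.

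In 3 transporter genes, also named after their values were seen, single libraries stood far from the others of their group. Slc43a2, a facilitative carrier of leucine and phenylalanine, was at 0.632, 0.587 and 0.507 FPKM in the vehicle and at 2.96, 0.411 and 3.85 FPKM in the T2DM libraries, so that T2DM replicate 2 lay below every vehicle library and the other T2DM libraries far above. It did not pass (adjusted p = 0.156 from limma), and without T2DM replicate 2 it did (adjusted p = 0.0103 from limma). That fit drops the very library that went against a rise, so it cannot show whether Slc43a2 rose. Slc38a1, a carrier of glutamine, was at 18.8, 18.2 and 5.09 FPKM in the vehicle and at 13.9, 12.7 and 16 FPKM in the T2DM libraries. Slc36a1, a proton-coupled carrier of lysosomes and plasma membrane, was at 3.35, 0.899 and 2.56 FPKM and at 0.967, 3.04 and 4.03 FPKM. In each group of Slc36a1, 1 library lay far under the other libraries. Such gene values are sums over transcripts estimated from reads, and the source of these jumps was not tested.

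Among all 31 tested transporter names, 6 passed as higher, 1 passed as lower and 24 missed the threshold as deposited. Of all tested genes, 10.5% were higher and 1.70% lower as deposited. The median log2 fold change of the 31 was 0.15, beside 0.16 for all genes. Scaled, 3 were higher and 3 lower (4.10% and 3.55% of all tested genes), and the median was 0.01. In 10 of the 31 all T2DM libraries lay above all vehicle libraries (33.8% of all tested genes did), and in 6 all lay below (6.10% of all tested genes did). The 10 include Slc1a1 and Slc7a2 and the 6 include Slc7a11, each of which passed the filter through 1 group only. Mean levels ran from 0.475 FPKM for Slc6a2, the noradrenaline carrier, to 80.1 FPKM for Slc7a5. The untested Slc1a2, a glutamate carrier of astrocytes, was listed at 0 in vehicle replicates 1 and 2 and T2DM replicate 2 and reached at most 0.0166 FPKM.

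**Figure D2:**
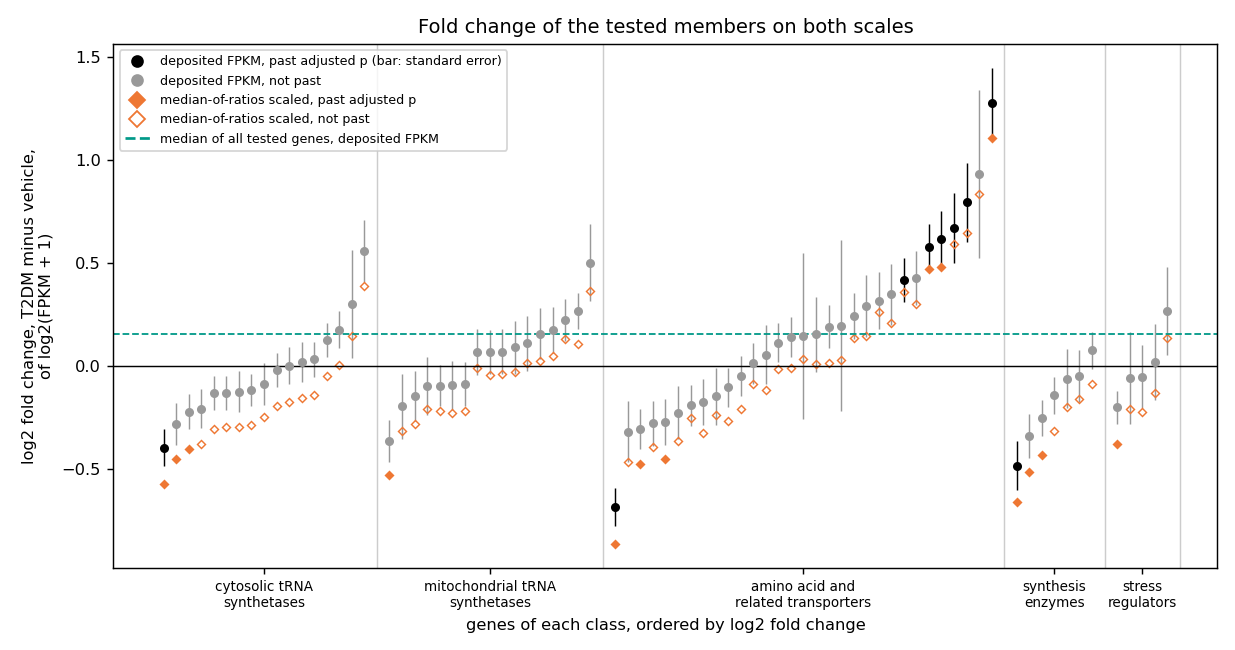
Log2 fold change of log2(FPKM + 1), T2DM minus vehicle, for the 77 tested members by class, as deposited (circles with standard error, black where past limma's adjusted p) and scaled by the median of ratios (diamonds, filled where past it). The dashed line marks the median of all tested genes, 0.16, and all 7 synthesis enzymes, 14 of 17 cytosolic synthetases and 12 of 17 mitochondrial synthetases lie under it.

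Of the 7 synthesis enzymes, Asns fell as deposited, and Asns, Pycr1 and Mthfd2 fell when scaled. Asns, asparagine synthetase, on chromosome 6 from 7675169 to 7693254, was at 46.5, 45.9 and 44.7 FPKM in the vehicle and at 27.5, 37.8 and 32.9 FPKM in the T2DM libraries. Its vehicle libraries lay close together, and all T2DM libraries lay lower, T2DM replicate 1 lowest. Asns fell from 45.7 ± 0.934 to 32.7 ± 5.13 FPKM (SD, n = 3 each), with a log2 fold change of -0.48 (SE 0.12, adjusted p = 0.0404 from limma) as deposited and -0.66 scaled (adjusted p = 0.0339). With 1 library left out, Asns passed only without T2DM replicate 2.

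Pycr1, the mitochondrial enzyme of the last step of proline synthesis, was at 23.8, 21.1 and 21.0 FPKM in the vehicle and at 17.1, 15.3 and 19.2 FPKM in the T2DM libraries. Mthfd2, a mitochondrial folate enzyme, was at 45.6, 41.5 and 40.6 FPKM and at 33.6, 37.9 and 35.2 FPKM. In neither gene did the groups overlap. Both did not pass as deposited (adjusted p = 0.0749 and 0.0955 from limma) and fell when scaled, by log2 fold changes of -0.51 (adjusted p = 0.0314) and -0.43 (adjusted p = 0.0366).

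The serine pathway showed no call on either scale. Phgdh, its first enzyme, was at 39.8 ± 1.90 FPKM in the vehicle and 36.1 ± 2.85 FPKM in T2DM LGs (limma, adjusted p = 0.311 as deposited and 0.0857 scaled). The next enzymes were scarcer, Psat1 at 3.21 ± 0.245 and 3.08 ± 0.770 FPKM and Psph at 1.57 ± 0.120 and 1.5 ± 0.325 FPKM. Shmt2, which turns serine into glycine in mitochondria, was at 7.49 ± 0.331 and 7.96 ± 0.492 FPKM. Together the 7 enzymes had a median log2 fold change of -0.14 as deposited and -0.32 scaled. As deposited 1 of 7 was lower (1.70% of all tested genes), and scaled 3 of 7 were lower (3.55% of all tested genes). The summed FPKM of the 7 enzymes was 156 to 169 in the vehicle and 124 to 143 in the T2DM libraries, with no overlap.

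Atf4, the most abundant of all 78 members, was at 123, 119.7 and 135 FPKM in the vehicle and at 112, 106 and 110.1 FPKM in the T2DM libraries. All T2DM values lay under all vehicle values by a small margin, with a log2 fold change of -0.20 as deposited (SE 0.08, adjusted p = 0.137 from limma) and -0.38 scaled (adjusted p = 0.0459). ATF4 is controlled mostly in translation, which these libraries do not measure. Atf5, a related factor of the mitochondrial stress response, was at 20.2 ± 1.38 and 19.8 ± 4.31 FPKM (SD, n = 3 each).

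The 3 stress targets with a role in cell death or feedback differed by less than the spread between libraries. Ddit3, the pro-apoptotic factor CHOP, was at 3.38, 6.58 and 4.75 FPKM in the vehicle and at 6.00, 4.15 and 3.72 FPKM in the T2DM libraries. Trib3, a pseudokinase that restrains ATF4, was at 1.30, 3.09 and 2.03 FPKM and at 3.36, 2.34 and 2.43 FPKM. Chac1, an enzyme that degrades glutathione, was at 5.01, 6.78 and 4.23 FPKM and at 6.65, 5.40 and 4.23 FPKM. Vehicle replicate 2 and T2DM replicate 1 were the highest of their groups in all 3 genes. The log2 fold changes were -0.06, 0.27 and 0.02 with SEs of 0.22, 0.21 and 0.19.

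**Figure D3:**
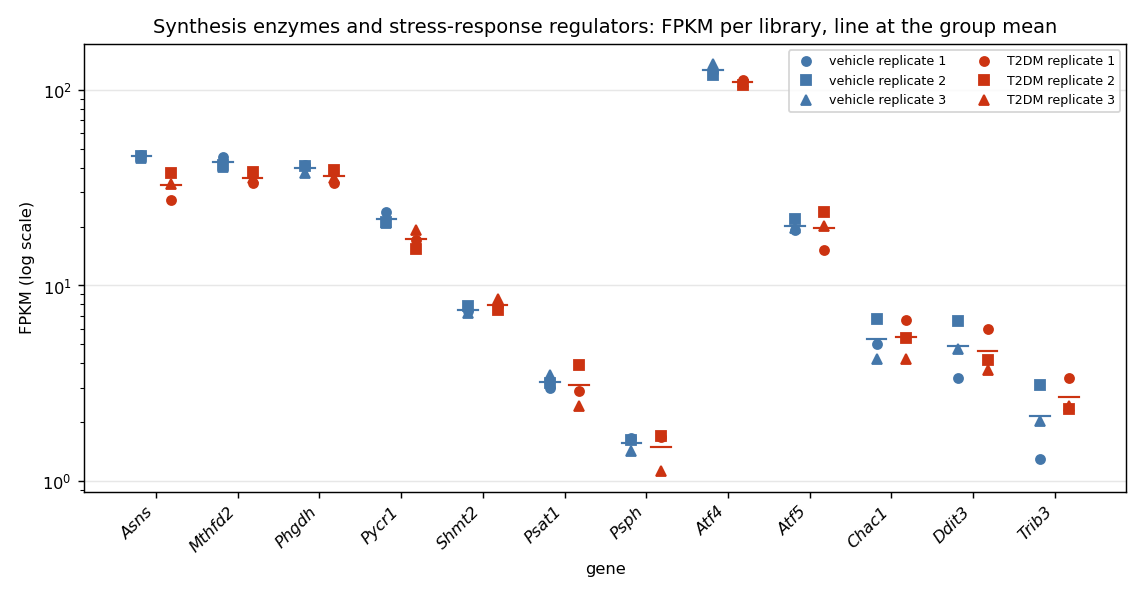
FPKM (log scale) of the 7 synthesis enzymes and 5 stress-response regulators in each library, with a line at each group mean. Asns, Mthfd2, Pycr1 and Atf4 lie lower in all 3 T2DM than in all 3 vehicle libraries, whereas the groups of Ddit3, Trib3 and Chac1 overlap.

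Many targets of ATF4 carry a C/EBP-ATF response element, of which TGATGNAA is the core, so this string was searched on both strands of RefSeq promoter windows (250 bases before to 50 after a gene start, GRCm38.p6). Windows of 58 of the 78 members were found, and 12 of the 58 genes held a match, as 13 of their 70 windows did, against 3.97% of all 32851 windows of this length. The matches fell on 5 of 9 matched cytosolic synthetases, 2 of 7 synthesis enzymes, 2 of 5 regulators, 3 of 23 transporters and none of 14 mitochondrial synthetases. The stretches below are shown because they carry the string in members of the 4 classes that held it. They run 5′ to 3′ along the gene's strand with the match in capitals, and TTNCATCA is the same string on the other strand.
Asns (chr6:7693214-7693243, minus strand): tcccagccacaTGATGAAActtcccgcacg
Pycr1 (chr11:120643833-120643862, minus strand): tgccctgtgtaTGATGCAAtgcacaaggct
Chac1 (chr2:119351038-119351067, plus strand): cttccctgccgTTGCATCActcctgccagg
Slc7a11 (chr3:50443661-50443690, minus strand): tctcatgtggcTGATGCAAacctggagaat
Tars (chr15:11399655-11399684, minus strand): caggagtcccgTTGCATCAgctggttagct
Gars (chr6:55037960-55037989, plus strand): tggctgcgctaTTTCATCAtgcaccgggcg

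Counted from the annotated start, the printed match begins at -23 in Asns, -103 in Pycr1, -193 in Chac1, -66 in Slc7a11, -15 in Tars and -30 in Gars. Of the 12 members with a match, 1 (Asns) was called lower and none higher (1.70% and 10.5% of all tested genes). A log2 fold change below 0 was found in 10 of the 12, in 25.2% of all tested genes and in 21 of the 45 tested members without a match. Slc7a11, tested only through the vehicle group, is among the 10. Scaled, 11 of the 12 lay below 0, as 46.5% of all tested genes did. The median log2 fold change as deposited was -0.17 for the 12 members and 0.01 for the 45. Scaled, 3 of the 12 were lower (Asns, Pycr1 and Iars, against 3.55% of all tested genes) and the medians were -0.29 and -0.09. The 12 and the 45 also differ in class. The 12 hold 5 cytosolic synthetases and 2 synthesis enzymes, and the 45 hold all 14 matched mitochondrial synthetases and most matched transporters. These medians thus mix match and class, and members were not compared within a class. A match describes the sequence and shows neither binding nor use of the site.

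One cytosolic tRNA synthetase gene, Rars, fell, and none rose (1.70% and 10.5% of all tested genes). Rars encodes the arginyl-tRNA synthetase (chromosome 11, 35808381 to 35834506), a member of the multi-synthetase complex, and was at 40.2, 43.5 and 46.3 FPKM in the vehicle and at 30.8, 33.5 and 33.8 FPKM in the T2DM libraries. The groups lay well apart. Rars fell from 43.3 ± 3.08 to 32.7 ± 1.64 FPKM (SD, n = 3 each), with a log2 fold change of -0.39 (SE 0.09, adjusted p = 0.0343 from limma) as deposited and -0.57 scaled (adjusted p = 0.0276). The call of Rars was lost whichever of the 6 libraries was left out.

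Nars, the asparaginyl-tRNA synthetase and the most abundant synthetase, was at 116, 112 and 109 FPKM in the vehicle and at 92.6, 104 and 92.3 FPKM in the T2DM libraries. Iars, the isoleucyl enzyme, was at 19.4, 17.5 and 15.8 FPKM and at 13.5, 15.2 and 14.0 FPKM. Neither overlapped between groups. Neither passed as deposited (adjusted p = 0.118 and 0.105 from limma), and both fell when scaled (log2 fold changes of -0.40 and -0.45, adjusted p = 0.0415 and 0.0389). Iars was named after its values were seen.

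Vars, the valyl-tRNA synthetase, went the other way. It was at 15.2, 15.1 and 10.3 FPKM in the vehicle and at 21.4, 18.5 and 20.7 FPKM in the T2DM libraries, again without overlap. Its log2 fold change of 0.56 was the largest of the class but did not pass (SE 0.15, adjusted p = 0.0505 from limma, 0.112 scaled). Lars, the leucyl enzyme, differed by less than its spread, at 35.7 ± 3.79 and 36.1 ± 1.48 FPKM.

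Over the 17 cytosolic synthetases the median log2 fold change was -0.08 as deposited and -0.25 scaled. In 7 genes all T2DM libraries lay under all vehicle libraries, against 6.10% of all tested genes, and in 2 all lay above, against 33.8%. The 7 were Rars, Nars, Iars, Tars, Gars, Cars and Aars, of which Tars, Gars, Cars and Aars were named after their values were seen. Scaled, 3 were lower at the adjusted p and 10 at an unadjusted p under 0.05, against 3.55% and 11.9% of all tested genes. The summed FPKM of the class was 438 to 463 in the vehicle and 411 to 442 in the T2DM libraries, which overlapped.

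**Figure D4:**
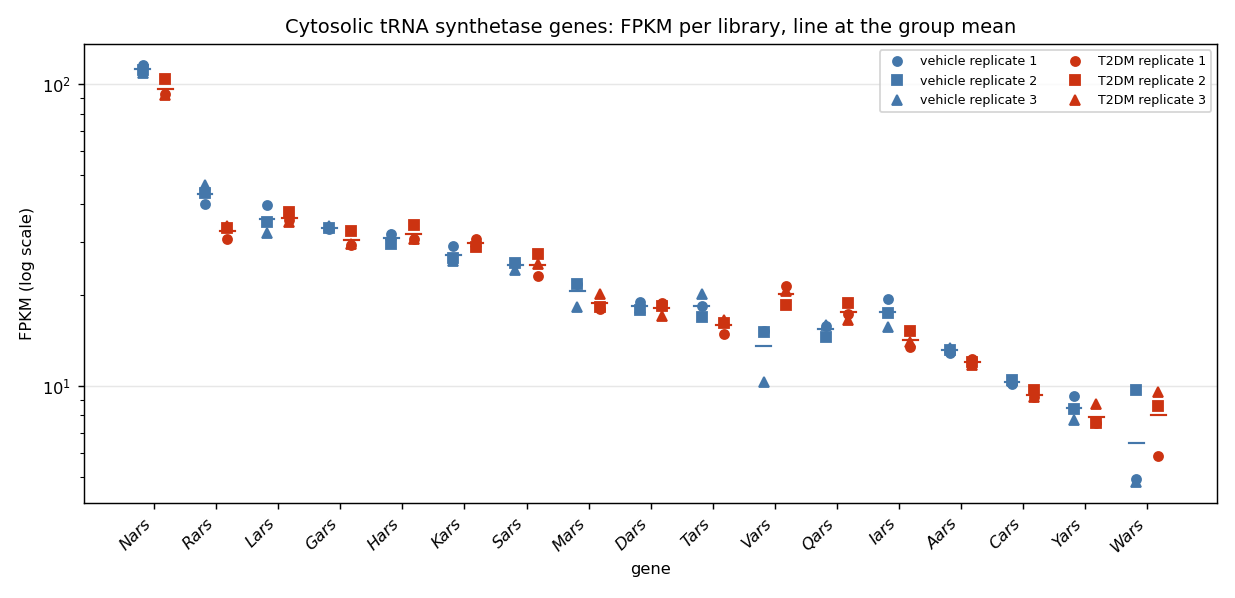
FPKM (log scale) of the 17 cytosolic tRNA synthetase genes in each library, ordered by mean level, with a line at each group mean. Rars, Nars and Iars lie lower in all 3 T2DM libraries and Vars lies higher, while Lars, Hars, Sars and Dars overlap between groups.

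The mitochondrial synthetases were scarcer, with a median level of 2.12 FPKM against 18.3 FPKM for the cytosolic set. None of the 17 passed as deposited, where 10.5% of all tested genes were higher and 1.70% lower. By limma, 2 of the 17 were higher and 1 lower at an unadjusted p under 0.05, against 28.5% and 4.57% of all genes. Rars2, the mitochondrial arginyl enzyme, was at 12.2, 10.8 and 9.72 FPKM in the vehicle and at 8.41, 8.07 and 8.22 FPKM in the T2DM libraries. It just missed the threshold as deposited (log2 fold change -0.36, standard error 0.10, adjusted p = 0.0548 from limma) and fell when scaled (-0.53, adjusted p = 0.0214). Both arginyl enzymes lay lower in every T2DM library. Rars was 1 of 7 cytosolic synthetases with this pattern, so it was not particular to arginine, and Rars2 was the only mitochondrial one.

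Iars2 and Hars2 did not follow Rars2. Iars2, the mitochondrial isoleucyl enzyme, was at 7.56 ± 0.440 FPKM in the vehicle and 9.31 ± 0.220 FPKM in T2DM LGs (log2 fold change 0.27, adjusted p = 0.0779 from limma, 0.420 scaled), whereas cytosolic Iars was lower in every T2DM library. Hars2 was at 3.59, 2.90 and 1.80 FPKM and at 4.49, 4.66 and 3.59 FPKM, with an adjusted p of 0.109 from limma, and its cytosolic neighbor Hars, which overlaps it on the opposite strand, was at 31.0 ± 1.21 and 31.8 ± 1.99 FPKM. The median of the class was 0.07 as deposited and -0.04 scaled, so its sign depended on the scaling, and the summed FPKM was 43.7 to 53.2 and 46.8 to 51.0.

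Genes of the same pathways outside the rule showed calls mainly in glutamine and folate metabolism. Of 21 tested genes of other amino acid metabolism, 1 was higher and 3 were lower (10.5% and 1.70% of all genes), and 1 and 4 scaled (4.10% and 3.55%). The fourth was Got1, the cytosolic aspartate transaminase, named after its values were seen (5.34 ± 0.605 to 3.66 ± 0.606 FPKM, scaled log2 fold change -0.60, adjusted p = 0.0385 from limma). Glul, glutamine synthetase, was higher, rising from 83.9 ± 11.2 to 213.8 ± 48.0 FPKM (SD, n = 3 each), with a log2 fold change of 1.32 (adjusted p = 0.0123 from limma). The genes lower as deposited were Gpt2, a mitochondrial alanine transaminase (26.9 ± 1.23 to 17.0 ± 1.42 FPKM), and the formyltetrahydrofolate dehydrogenases Aldh1l1 of the cytosol (7.5 ± 0.419 to 2.45 ± 0.504 FPKM) and Aldh1l2 of mitochondria (11.6 ± 0.392 to 6.88 ± 1.21 FPKM). Glul, Gpt2, Aldh1l1 and Aldh1l2 kept their direction and their call when scaled.

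Of 13 tested genes of the synthetase complexes and related factors outside the rule, none passed on either scale. Of 23 tested genes of the eIF2 alpha kinases and other ATF4 pathway genes, 1 was higher and none lower as deposited (10.5% and 1.70% of all genes), and none was higher and 1 lower scaled (4.10% and 3.55%). The gene that passed as deposited was Eif2ak2, and the gene that passed when scaled was Ddit4, an inhibitor of mTORC1 named after its values were seen (29.3 ± 2.96 to 23.8 ± 3.41 FPKM, scaled log2 fold change -0.47, adjusted p = 0.0489 from limma). Eif2ak2, the interferon-induced kinase PKR, increased from 6.19 ± 1.34 to 10.9 ± 2.76 FPKM (SD, n = 3 each, log2 fold change 0.72, adjusted p = 0.0488 from limma, 0.101 scaled). None of 24 tested genes by which the growth kinase complex mTORC1 senses amino acids passed on either scale, and their median log2 fold change was 0.16, beside 0.16 for all genes.

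Markers of cell types moved with the groups in part. As deposited 10.5% of all genes were higher and scaled 4.10%. Of 6 genes listed as duct markers, 5 were higher as deposited, namely Clu, Krt7, Krt18, Slc12a2 and Epcam. Krt19 did not pass (adjusted p = 0.0635 from limma). The summed FPKM of the 6 was 464 to 505 in the vehicle and 742 to 948 in the T2DM libraries. Krt18 (means of 318 and 467 FPKM) and Epcam (109 and 173 FPKM) held much of it. Whether the listed genes mark ducts alone in this gland was not tested. Of 5 myoepithelial markers 3 were higher (summed 124.9 to 138 and 166 to 199 FPKM), of 7 markers of plasma and B cells 2 were higher (175 to 268 and 305 to 384 FPKM), and of 4 acinar markers in the table none passed. Scaled, 3 duct (Clu, Slc12a2 and Epcam), 0 myoepithelial and 1 plasma or B cell markers were higher. Lower was 1 acinar marker (3.55% of all genes were lower). None of the tested endothelial, T cell, macrophage, salivary, skeletal muscle or adipocyte markers passed on either scale. Of 4 salivary markers in the table, Bpifa2, Smr3a and Amy1 were at 1127, 585 and 365 FPKM in vehicle replicate 1. Elsewhere they reached at most 4.57 FPKM, so this library stood apart, and without it Slc6a6 and Slc7a5 were the members called. Prol1, the remaining salivary marker, went the other way, at 2.57, 0.830 and 0.701 FPKM in the vehicle and 4.80, 3.73 and 15.5 FPKM in the T2DM libraries. The part of these shifts in the values of the transporters, enzymes and synthetases was not tested, and in bulk tissue fewer cells of a type and less RNA per cell cannot be told apart.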

How the data were processed

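The authors trimmed reads of poly(A) libraries with cutadapt, mapped them onto GRCm38 by HISAT2 and estimated transcript abundance in StringTie. The deposited values are gene-level FPKM, which the authors computed with Ballgown, with no further scaling between libraries stated. The submitters' notes name hg19 and GRCh37, but 71 of 78 members, and 11420 of 12491 genes, have the GRCm38 coordinates of GENCODE M21. FPKM hold no read numbers, so the depth is unknown and no counting interval is given. In the copy used, 1 line was empty. Whether strand was used in estimating abundance is not stated. Genes that overlap others, such as Slc7a5, Slc6a9, Slc6a20a, Slc1a1, Hars, Mars and Ddit3, may thus share reads. GENCODE M21 also holds another entry named Ddit3 on the same strand, so the Ddit3 values may miss part of its reads.

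The 12135 genes whose group mean reached 0.5 FPKM in either group were tested with limma 3.58.1 in R 4.3.3 on log2(FPKM + 1), with a mean-variance trend, empirical Bayes, no covariate and Benjamini-Hochberg adjustment, and the fit was tested on simulated data. Members and lists were chosen with earlier results of these data known. Named were all called members, the 12 genes the rule lists, the 3 most abundant and the 2 with the smallest p of each class, and up to 4 called genes of each related list. Alternatives were other pseudocounts, filters and scalings, no trend, no moderation, the fold and p cutoffs of the paper on log2(FPKM + 1) and on the ratio of mean FPKM, blocking on replicate, and leaving out single libraries.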

Additional observations from a re-analysis of the deposited data

How the results depend on the processing

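As deposited, 6 members were called higher and 3 lower. These counts were 3 and 11 when scaled by the median of ratios, 4 and 6 when scaled without the 20 most abundant genes, 4 and 1 by a 1.5-fold change on the log2(FPKM + 1) scale with unadjusted p under 0.05, 8 and 1 with that fold taken on the ratio of mean FPKM as an alternative added after seeing the data (the fold and p cutoffs of the paper, here with p from limma), and 0 and 0 with a linear model without moderation, by which 10 members were higher and 14 lower at an unadjusted p. With 1 library left out they were 0 to 4 and 0 to 2, lowest without vehicle replicate 3, and 0 to 2 and 1 to 6 in the scaled fit, an alternative added after seeing the data. Scaled by the median of ratios, the lower calls were 3 cytosolic synthetases, 1 mitochondrial synthetase, 3 transporters, 3 synthesis enzymes and 1 regulator, and the higher calls were 3 transporters. Scaled without the 20 most abundant genes, 3 synthesis enzymes and 1 mitochondrial synthetase were lower. With a filter of 2 FPKM, 1 cytosolic synthetase (Vars) was higher and 1 mitochondrial synthetase (Rars2) lower. By either fold cutoff 0 cytosolic synthetases and 0 synthesis enzymes were lower, and by the ratio 1 mitochondrial synthetase (Hars2) was higher. With 1 library left out, 0 to 4 transporters were higher and 0 to 1 lower, 0 cytosolic synthetases were lower, and 0 to 1 synthesis enzymes were lower.

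Replicate numbers did not pair the libraries, as deviations from the group means correlated at 0.03, 0.02 and -0.00220 between same-numbered libraries. With the replicate block, 3 members were higher and 1 lower (Slc6a6, Slc6a9, Slc6a20a and Slc7a5), all of them transporters, so 0 cytosolic synthetases and 0 synthesis enzymes passed, and 1 and 1 passed in the scaled fit with the block. Over all tested genes 1271 were higher and 206 lower as deposited, 498 and 431 scaled by the median of ratios, 771 and 289 scaled without the 20 most abundant genes, 881 and 145 by the fold cutoff on the log2(FPKM + 1) scale, 1700 and 257 by the ratio, 551 and 98 with the block, 0 and 0 without moderation (2960 and 488 at an unadjusted p, smallest adjusted p 0.0522), and 25 to 885 and 16 to 130 with 1 library left out. No called member changed direction under the 15 alternatives, but only the scalings could have reversed one. Filter, trend, moderation, cutoff and block leave the direction as it is. The groups of the called members do not overlap, so another pseudocount or a left-out library cannot reverse them. The cause of these differences was not tested, and with 3 libraries per group and FPKM without read numbers, the precision of single low genes is unknown.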
